A study of Rattus norvegicus with 18 samples.

Results

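Gabra2, Gabra3, Gabra4, Gabra5, Gabrb1, Gabrb2, Gabrg1, Gabrg3 and Gabrd encode subunits of the GABA-A receptor, and their mRNA was measured in the rat nucleus accumbens, a ventral striatal region. The genes were chosen by name: each array feature whose platform symbol is exactly one of these was taken, and where a symbol had several features the one with the highest mean was used. All 9 were found, among 22093 genes measured. Each of 18 male Sprague-Dawley rats gave 1 whole-transcript array, in 3 groups of 6 called shock resistant, shock sensitive and control. The arrays come from a study of rats that administered methamphetamine to themselves and met footshock as its adverse consequence. In such work shock-resistant animals go on taking the drug despite shock and shock-sensitive animals cut down. All rats shared strain, sex and brain region, and the 6 of each group were picked for the quality of their RNA. The treatment of the control rats and the age of all animals were details not given in the sources used here.

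GABA-A receptors are pentameric chloride channels opened by GABA, the main inhibitory transmitter of the brain and the one that the projection neurons of the striatum, the medium spiny neurons, release themselves. Most receptors combine alpha and beta subunits with a gamma subunit and are often found at synapses, while alpha4 or alpha6 with delta, and alpha5 in many neurons, form receptors outside synapses that carry a tonic current. Medium spiny neurons are known for a tonic current through receptors with the alpha4 and delta subunits.

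Promoter sequence is shown for the 6 subunits on which the results below turn, because Gabra4 with Gabrd, and Gabra3 with Gabrb1 and Gabrg1, varied together across rats, and Gabrb2 is the second beta subunit. Each line gives the 250 bases before the annotated start, 5′ to 3′ on the strand of the gene, from RefSeq on assembly GRCr8. Capitals mark the GC box (GGGCGG), the CCAAT box (CCAAT) and the motif of the factor NRF1, which is the longest run of capitals in both beta subunit promoters, each on either strand.
Gabra3: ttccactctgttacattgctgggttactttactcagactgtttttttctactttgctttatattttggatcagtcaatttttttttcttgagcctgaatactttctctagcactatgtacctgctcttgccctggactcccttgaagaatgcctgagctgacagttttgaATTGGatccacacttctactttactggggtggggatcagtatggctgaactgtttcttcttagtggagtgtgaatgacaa
Gabra4: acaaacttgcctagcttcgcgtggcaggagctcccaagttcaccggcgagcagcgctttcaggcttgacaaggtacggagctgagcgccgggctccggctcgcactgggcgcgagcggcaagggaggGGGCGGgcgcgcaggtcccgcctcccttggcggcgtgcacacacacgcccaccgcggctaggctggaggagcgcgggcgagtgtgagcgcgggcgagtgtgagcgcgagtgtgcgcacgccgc
Gabrb1: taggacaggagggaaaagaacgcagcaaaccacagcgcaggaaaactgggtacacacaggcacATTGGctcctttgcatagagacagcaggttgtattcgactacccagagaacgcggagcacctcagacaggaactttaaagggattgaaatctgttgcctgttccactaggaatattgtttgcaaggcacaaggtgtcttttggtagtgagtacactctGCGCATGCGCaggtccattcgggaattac
Gabrb2: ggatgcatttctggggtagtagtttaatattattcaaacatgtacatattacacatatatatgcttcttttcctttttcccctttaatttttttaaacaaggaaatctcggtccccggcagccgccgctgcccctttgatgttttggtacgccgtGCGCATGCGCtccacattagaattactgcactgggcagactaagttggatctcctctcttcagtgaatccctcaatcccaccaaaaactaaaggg
Gabrg1: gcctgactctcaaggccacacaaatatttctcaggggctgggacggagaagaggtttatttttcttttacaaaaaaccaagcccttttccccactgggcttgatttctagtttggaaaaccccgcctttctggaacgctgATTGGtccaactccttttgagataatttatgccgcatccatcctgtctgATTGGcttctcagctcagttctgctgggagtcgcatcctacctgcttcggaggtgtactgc
Gabrd: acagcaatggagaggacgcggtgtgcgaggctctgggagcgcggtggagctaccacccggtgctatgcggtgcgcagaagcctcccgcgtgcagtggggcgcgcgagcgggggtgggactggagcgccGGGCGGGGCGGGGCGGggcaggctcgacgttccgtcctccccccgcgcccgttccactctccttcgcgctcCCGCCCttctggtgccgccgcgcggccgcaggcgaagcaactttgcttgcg
The windows lie at chrX:155543871-155544120 on the minus strand for Gabra3, chr14:36944497-36944746 on the plus strand for Gabra4, chr14:36902894-36903143 on the minus strand for Gabrb1, chr10:27439543-27439792 on the plus strand for Gabrb2, chr14:37750042-37750291 on the plus strand for Gabrg1 and chr5:171252710-171252959 on the minus strand for Gabrd. RefSeq promoters were matched for 8 of the 9 genes, Gabra2 being the one named here only.

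The promoters of Gabra4 and Gabrd were rich in G and C, at 71.6% and 74% with 33 and 35 CpG dinucleotides, against a median of 51.2% and 5 CpG over 33469 rat promoters of the same length. Those of Gabra5 and Gabrg3 were likewise rich, at 76.4% and 78%. The promoters of Gabrb1, Gabrg1, Gabrb2 and Gabra3 held less, at 49.2%, 48.4%, 43.2% and 40.4%, and that of Gabra3 held 0 CpG. A GC box stood in Gabra4, Gabra5, Gabrg3 and Gabrd, and in 30.5% of all promoters. Gabrd had 4 matches, of which neighbouring ones share a base. A CCAAT box stood in Gabra3, Gabrb1 and, at 2 places, Gabrg1, and in 34% of all promoters. The NRF1 motif, read alike on both strands, stood in both beta subunit genes, at position −29 from the start in Gabrb1 and −95 in Gabrb2, and in 0.762% of all promoters. The 11 bases TGCGCATGCGC that hold it are the longest run the 2 beta promoters share. The TATA box letters (TATAAA, on either strand) stood in Gabra3 alone among the 8, and in 12.9% of all promoters. In Gabra3 they lay on the opposite strand, at position −194 from the start. The CRE motif (TGACGTCA) and the EGR motif (GCGTGGGCG, which overlaps the letters of a GC box) were in none of the 8. These letter matches describe the windows, and binding of any factor was not measured.

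Each of the 9 subunit genes lay above 6.37 on the log2 scale, the median of 1153 negative control features, on all 18 arrays, whereas 47.6% of all genes had a mean below it. Gabrd lay nearest to that median, at 6.44 on shock-sensitive replicate 4 and 6.76 on control replicate 1. The next lowest subunit, Gabra5, had a lowest value of 9.50. Features differ in how strongly they respond, so levels are set side by side between groups and not between subunits. The labelled tissue was checked by its markers: 17 of 17 measured medium spiny neuron markers lay above the negative control median, as did 8 of 13 cortical excitatory markers. Arrays correlated with each other at 0.992 to 0.997 over all features. Shock-sensitive replicate 4 and control replicate 1 stood apart: their mean over the 17 medium spiny neuron markers was 11.10 and 11.20. The other arrays spanned 11.99, on shock-sensitive replicate 5, to 13.23, and the shock-resistant arrays 12.47 to 13.23. Shock-sensitive replicate 4 and control replicate 1 also had the highest mean over 14 septal, thalamic or hypothalamic markers, at 9.35 and 9.09. Differences fitted without these 2 arrays are given after those from all arrays. Shock-resistant replicate 4 stood apart in its choroid plexus markers, with a mean of 8.83 over 8 genes, against 5.22 to 5.81 on the other 17 arrays.

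Gabra3 encodes an alpha subunit of benzodiazepine-sensitive receptors, and it showed the widest separation between the methamphetamine groups. Its log2 value had a lowest of 11.33, a median of 11.89 and a highest of 12.20 in shock-resistant rats. The same values were 12.04, 12.40 and 12.96 in the shock-sensitive group and, in controls, 11.82, 12.20 and 12.73. The 3 lowest shock-resistant rats, at 11.33, 11.49 and 11.58, lay below every rat of both other groups, and the other 3 shared 1 value of 12.20, inside the range of both. All 6 shock-resistant rats lay under the shock-sensitive median. Gabra3 averaged 11.84 ± 0.41 in the shock-resistant group, 12.45 ± 0.30 in the shock-sensitive group and 12.30 ± 0.34 in control rats (SD, n = 6 each).

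Gabra4, the alpha subunit that pairs with delta in extrasynaptic receptors, varied most among rats. Its lowest, median and highest log2 values were 14.22, 14.40 and 14.97 in shock-resistant rats. They were 12.92, 14.05 and 14.87 in shock-sensitive rats and 13.45, 14.37 and 14.69 in controls. The low ends came from shock-sensitive replicate 4 and control replicate 1, and the 3 groups otherwise overlapped. Over all 18 rats Gabra4 spanned 2.05 on the log2 scale, a 4.13-fold range, and its SD within groups exceeded that of 98.5% of the genes above the negative control median. Gabra4 averaged 14.48 ± 0.27 in the shock-resistant group, 14.09 ± 0.69 in the shock-sensitive group and 14.29 ± 0.44 in control rats (SD, n = 6 each).

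Gabra5 encodes an alpha subunit found largely outside synapses. Its lowest, median and highest log2 values were 9.50, 9.83 and 9.91 in the shock-resistant group, 9.74, 10.07 and 10.21 in the shock-sensitive group and 9.60, 9.88 and 10.30 in controls. Every shock-resistant rat lay under the shock-sensitive median, and the ranges overlapped. Gabra2 encodes the alpha subunit of many striatal synaptic receptors, and its groups lay on top of each other. Its lowest, median and highest values were 14.79, 15.04 and 15.28 in the shock-resistant group, 14.92, 15.09 and 15.34 in the shock-sensitive group and 14.81, 15.09 and 15.63 in controls.

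**Figure D1:**
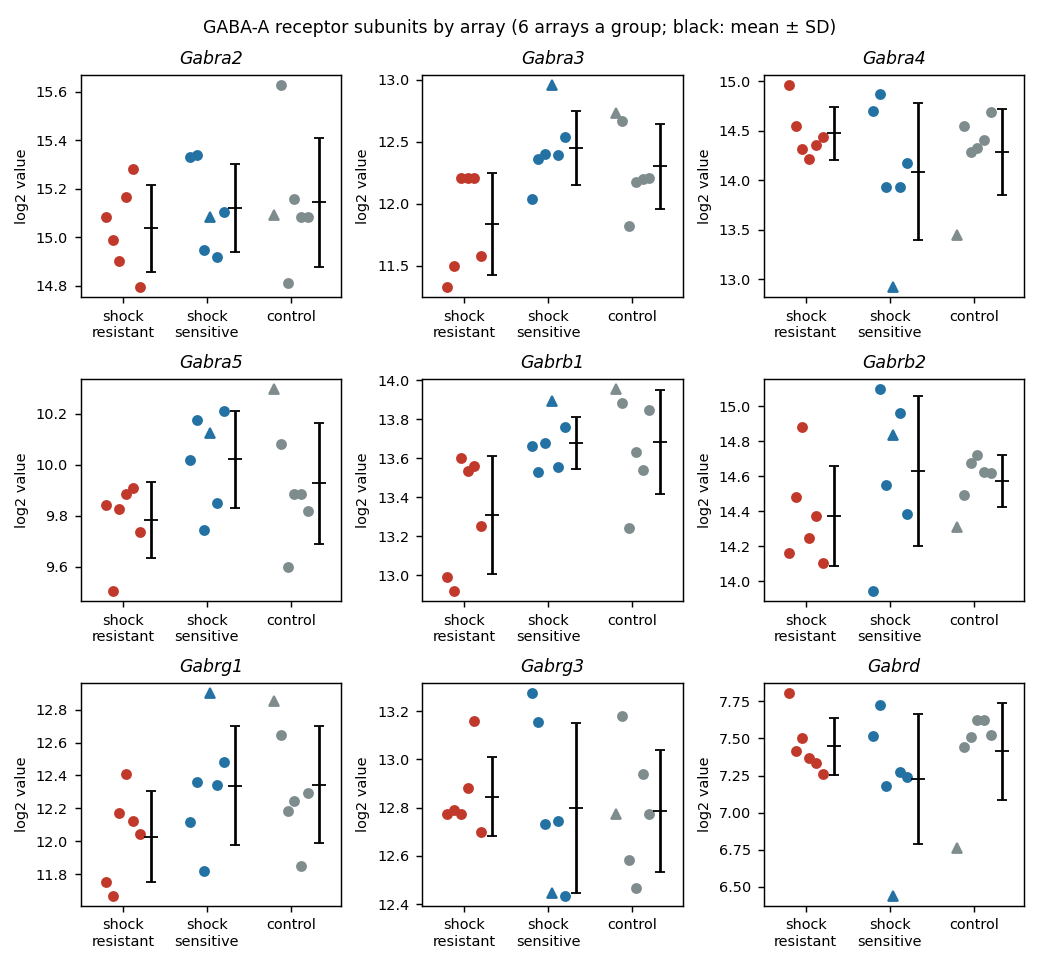
Log2 values of the 9 subunit genes in each of 18 rats, with 1 panel per gene and its own vertical axis, shock resistant in red, shock sensitive in blue and control in grey. Black bars are the mean and SD of 6 arrays, and triangles mark shock-sensitive replicate 4 and control replicate 1, which hold the 2 lowest values of Gabra4 and Gabrd. The 3 lowest shock-resistant values of Gabra3, 11.33 to 11.58, lie below every other rat.

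Beta subunits form part of the GABA binding site. For Gabrb1 the lowest, median and highest log2 values were 12.92, 13.39 and 13.60 in shock-resistant rats. They were 13.53, 13.67 and 13.89 in shock-sensitive rats and 13.24, 13.74 and 13.95 in controls. Every shock-resistant rat lay below the median of either other group, and 3 of the 6 lay below every shock-sensitive rat. Gabrb1 averaged 13.31 ± 0.30 in the shock-resistant group, 13.68 ± 0.13 in the shock-sensitive group and 13.68 ± 0.27 in control rats (SD, n = 6 each). For Gabrb2 these values were 14.10, 14.31 and 14.88 in shock-resistant rats. They were 13.94, 14.69 and 15.10 in the shock-sensitive group, against 14.31, 14.62 and 14.72 in controls, so that both methamphetamine groups reached past the controls at each end.

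Gamma subunits give receptors their benzodiazepine site and their place at synapses. The lowest, median and highest log2 values of Gabrg1 were 11.67, 12.08 and 12.41 in the shock-resistant group, 11.82, 12.35 and 12.90 in the shock-sensitive group and 11.85, 12.27 and 12.85 in controls. The 2 lowest rats were shock resistant, and the 2 highest were shock-sensitive replicate 4 and control replicate 1. For Gabrg3 the values were 12.70, 12.78 and 13.16 in the shock-resistant group, 12.44, 12.74 and 13.27 in the shock-sensitive group and 12.47, 12.77 and 13.18 in controls, with the shock-resistant range inside both others.

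Gabrd, the delta subunit of tonic, extrasynaptic receptors, had lowest, median and highest log2 values of 7.26, 7.39 and 7.81 in shock-resistant rats. They were 6.44, 7.26 and 7.73 in the shock-sensitive group and, in controls, 6.76, 7.52 and 7.63. As with Gabra4, the lowest rat was shock-sensitive replicate 4, the next was control replicate 1 and the highest was shock-resistant replicate 1. Gabrd averaged 7.45 ± 0.19 in the shock-resistant group, 7.23 ± 0.44 in the shock-sensitive group and 7.41 ± 0.33 in control rats (SD, n = 6 each).

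The comparison of shock-resistant with shock-sensitive rats asks what differs between rats that took the same drug and did or did not hold back under shock. Gabra3 was lower in shock-resistant rats by a log2 difference of −0.61 ± 0.19 (SE), or 1.53-fold, with a limma p of 0.0047 that became 0.753 after Benjamini-Hochberg adjustment over all genes. Gabrb1 differed by −0.37 ± 0.13, 1.29-fold lower, with a limma p of 0.012 and an adjusted p of 0.753. Gabra5 differed by −0.24 ± 0.11, 1.18-fold lower, with a limma p of 0.039 and an adjusted p of 0.769. By two-sided exact permutation of the arrays the p-values of these 3 genes were 0.015, 0.019 and 0.039, and after adjustment over all 27 member comparisons they were 0.263, 0.263 and 0.336. None of the 9 subunits passed the adjusted limma threshold of 0.05 (background 0% of all genes), and 3 passed at an unadjusted p under 0.05, all lower in shock-resistant rats, by limma and likewise by the exact test. At that unadjusted threshold 3.77% of all genes were lower, 2.63% were higher and 6.4% were called in either direction. All 9 subunits lay above the negative control median, and among the 11573 genes at or above it 5.61% were lower and 3.08% higher. Leaving out shock-resistant replicate 4, Gabra3, Gabrb1 and Gabra5 differed by −0.69, −0.42 and −0.26. With each array left out in turn, they ranged over −0.69 to −0.51, −0.43 to −0.29 and −0.29 to −0.18. The groups overlapped for each of the 9 subunits, while they did not for 0.213% of all genes.

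Gabra4 and Gabrd ran the other way in that comparison. Gabra4 was higher in shock-resistant rats by 0.39 ± 0.26 (SE) and Gabrd by 0.22 ± 0.18, with adjusted limma p-values of 0.831 and 0.861, and in both genes 6 of 6 shock-resistant rats lay above the shock-sensitive median. Their 95% intervals, −0.17 to 0.94 and −0.16 to 0.60, held 0. Gabrg1 was lower by −0.31 ± 0.18 and Gabrb2 by −0.26 ± 0.17, with adjusted limma p-values of 0.791 and 0.815. Gabra2 and Gabrg3 differed by −0.08 and 0.05, with intervals of −0.33 to 0.16 and −0.25 to 0.35. The median difference of the 9 genes was −0.24, and that of all genes above the negative control median was −0.02.

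Against controls, shock-resistant rats had lower Gabrb1, by −0.38 ± 0.13 (SE), or 1.30-fold, with a limma p of 0.011, an adjusted p of 0.331 and an exact permutation p of 0.0498. Gabra3 was lower by −0.47 ± 0.19, or 1.38-fold, with a limma p of 0.025 and an adjusted p of 0.374, while the exact permutation p was 0.0758. None of the 9 subunits passed the adjusted limma threshold (background 0.0181% of all genes), 2 were lower at an unadjusted p under 0.05 (background 4.2% lower, 7.22% higher and 11.4% in either direction), and 1 passed the exact test before adjustment. Those shares of all genes moved with the setting: 7.77% were lower and 3.3% higher with median centring, 4.39% and 3.89% with quantile normalization, and 6.53% and 2.44% among genes at or above the negative control median. Gabrg1, Gabrb2, Gabra5 and Gabra2 lay lower by −0.32, −0.20, −0.14 and −0.11, and Gabra4, Gabrg3 and Gabrd higher by 0.19, 0.06 and 0.03. The difference of Gabra4 was 0.02 when control replicate 1 was left out. Leaving out shock-resistant replicate 4, Gabrb1 and Gabra3 were at −0.42 and −0.54. With each array left out in turn, they ranged over −0.46 to −0.30 and −0.56 to −0.36. The median difference of the 9 was −0.14, against −0.03 for all genes above the negative control median. All 9 overlapped between the groups, as did all but 0.688% of genes.

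The largest differences between shock-sensitive rats and controls were −0.20 ± 0.26 (SE) for Gabra4, −0.18 ± 0.18 for Gabrd and 0.15 ± 0.19 for Gabra3, and the smallest adjusted limma p was 0.933. None of the 9 passed by limma, adjusted (background 0%) or at an unadjusted p under 0.05 (background 6.09%, of which 4.56% higher and 1.53% lower), and none by the exact test. Median centring gave 2.45% of all genes higher and 2.47% lower here, quantile normalization 2.62% and 1.92%, and genes at or above the negative control median 1.29% and 1.78%. The groups overlapped for all 9, and did not for 0.38% of all genes. For Gabrb1 the difference was −0.01 with a 95% interval of −0.28 to 0.27. Both comparisons with controls use the same 6 control arrays. In a limma F test over the 3 groups Gabra3 had an unadjusted p of 0.012 and Gabrb1 of 0.016, with adjusted p-values of 0.506 and 0.512. By that test 8.61% of all genes lay under an unadjusted p of 0.05 and 0.00905% under an adjusted one.

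**Figure D2:**
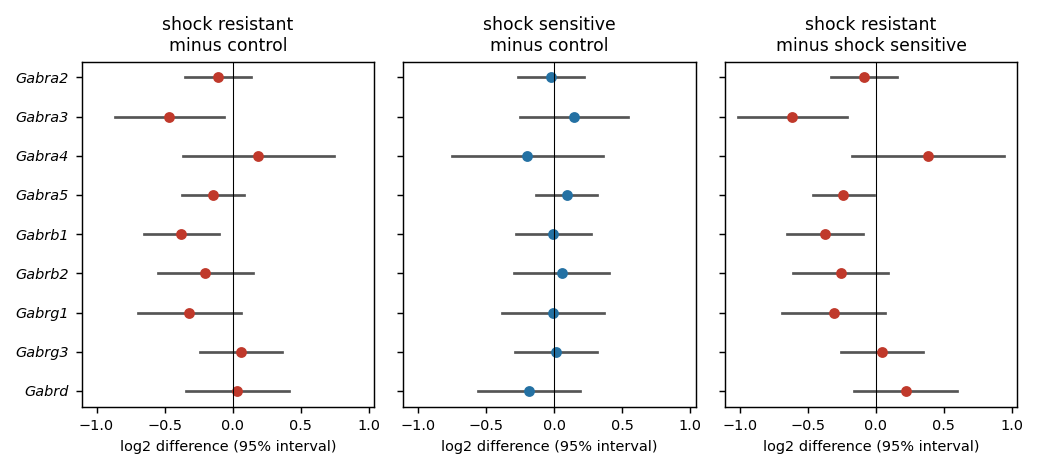
Log2 difference of each subunit gene in the 3 comparisons, with points at the estimate and bars for the 95% interval of the limma fit (6 arrays a group). The intervals of Gabra3 and Gabrb1 lie below 0 where shock-resistant rats are compared with either group, that of Gabra5 lies below 0 against shock-sensitive rats alone, and all 9 intervals span 0 between shock-sensitive rats and controls.

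Over the 18 rats the subunits fell into sets that varied together. Of 36 pairs, 13 had a Pearson correlation with a permutation p that passed 0.05 after Benjamini-Hochberg adjustment over the 36, 9 of them positive and 4 negative. By Spearman's rho 11 pairs passed, of which 10 were among the 13. With the group means removed 11 passed, all among the 13, without Gabra2 with Gabra5 and Gabra4 with Gabrg1 (adjusted permutation p = 0.0914 and 0.0815). With quantile normalization 14 passed, 12 of them among the 13. All pairs share the same arrays and so are not independent of one another. Gabra4 and Gabrd, partners in extrasynaptic receptors, had r = 0.93 and rho = 0.78 (adjusted permutation p = 0.00018, from a p of 1e-05, the smallest 100000 permutations can give). Without the 2 arrays farthest from the Gabra4 median, shock-sensitive replicate 4 and control replicate 1, r was 0.77. On those arrays Gabrd was at 6.44 and 6.76, near the negative control median of 6.37.

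Gabra3 and Gabrb1, the genes lower in shock-resistant rats before adjustment, had r = 0.91 and rho = 0.79 (adjusted permutation p = 0.00018), and r = 0.89 without the 2 farthest arrays. Gabrg1 and Gabra5 joined them. Gabra3 with Gabrg1 gave r = 0.81 and rho = 0.78, Gabrb1 with Gabrg1 gave r = 0.76 and rho = 0.63, and Gabra5 gave r = 0.75 with Gabrg1, 0.72 with Gabra3 and 0.71 with Gabrb1, with rho of 0.70, 0.66 and 0.59. The adjusted permutation p-values of these 5 pairs lay between 0.00072 and 0.00396, and r without the 2 farthest arrays lay between 0.53 and 0.79. Gabra2 correlated with Gabrg3 (r = 0.65, rho = 0.55, adjusted permutation p = 0.0136) and with Gabra5 (r = 0.57, rho = 0.74, adjusted permutation p = 0.0402), and r was 0.60 and 0.56 without the 2 farthest arrays. With quantile normalization Gabra2 with Gabra5 did not pass (adjusted permutation p = 0.0701), and by rho Gabra2 with Gabrg3 did not.

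The 4 negative pairs joined Gabra4 or Gabrd to Gabra3 or Gabrg1. Gabra3 with Gabra4 gave r = −0.66 and rho = −0.62, and Gabra3 with Gabrd r = −0.61 and rho = −0.59. Gabrg1 gave r = −0.62 and rho = −0.35 with Gabrd, and r = −0.60 and rho = −0.47 with Gabra4. Their adjusted permutation p-values lay between 0.0115 and 0.0210, and by rho the 2 pairs with Gabrg1 did not pass. With quantile normalization 6 negative pairs passed, among them Gabrb1 with Gabra4 (r = −0.58, adjusted permutation p = 0.0328) and with Gabrd (r = −0.56, adjusted permutation p = 0.0401). Without the 2 farthest arrays these correlations were −0.42, −0.32, −0.14 and −0.14. The 2 with Gabrg1 rested on shock-sensitive replicate 4 and control replicate 1, and the 2 with Gabra3 were weaker without shock-resistant replicate 1 and shock-sensitive replicate 4. Gabrb2 passed with none of the other 8 subunits, its correlations lying between −0.21 and 0.39.

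The places of the genes are given here beside these sets. In the RefSeq order of rat genes Gabrb1 and Gabra4 are neighbours on chromosome 14 and are read away from each other, and Gabra2 and Gabrg1 follow after one other gene. Gabrb1 and Gabra4 had r = −0.50 and rho = −0.45 (adjusted permutation p = 0.0866, which passed with quantile normalization as given above), and r = −0.27 without the 2 farthest arrays. Gabrb1 and Gabrg1, from the same stretch, were among the pairs that passed. Gabra2, next to Gabrg1, had r = 0.33 and rho = 0.40 with it (adjusted permutation p = 0.297), and r = 0.16 without the 2 farthest arrays. On chromosome 1 the neighbours Gabrg3 and Gabra5 had r = 0.14 and rho = 0.14 (adjusted permutation p = 0.676), and r = 0.19 without the 2 farthest. Gabra4 and Gabrd, with the highest correlation, lie on chromosomes 14 and 5, and Gabra3 and Gabrb1 on X and 14. The promoters of Gabra4 and Gabrd are both GC-rich. So is that of Gabra5, which varied with Gabra3, Gabrb1 and Gabrg1, whose promoters are not. Any part of gene position or promoter composition in these correlations was not tested.

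**Figure D3:**
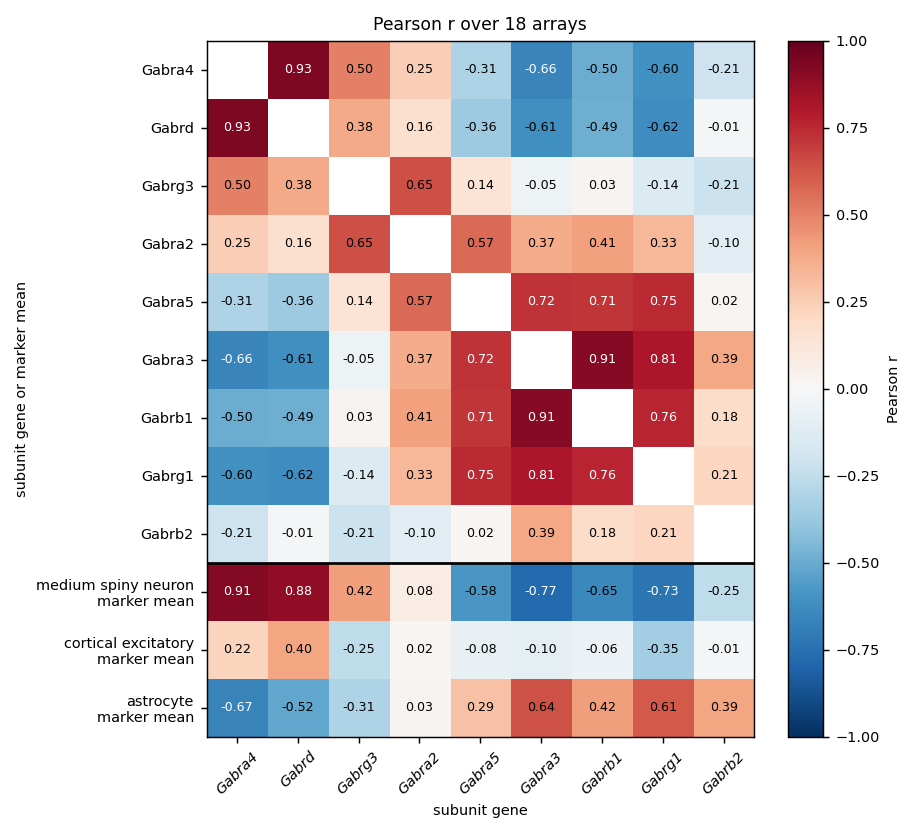
Pearson r over 18 arrays between subunit genes, and below the line between each subunit gene and the mean log2 value of 3 marker lists, with red for positive and blue for negative values. Gabra4 and Gabrd (r = 0.93) form one block, Gabra3, Gabrb1, Gabrg1 and Gabra5 (r = 0.71 to 0.91) another, and the medium spiny neuron mean is positive with the first and negative with the second.

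The same sets followed the mean of the medium spiny neuron markers, 17 genes such as Drd1, Drd2 and Ppp1r1b that mark the projection neurons. That mean was 12.75 ± 0.26 in the shock-resistant group, 12.17 ± 0.62 in the shock-sensitive group and 12.42 ± 0.63 in control rats (SD, n = 6 each). Of the 17 markers, 16 were higher and 1 lower in shock-resistant than in shock-sensitive rats, with a median difference of 0.65, and 4 had an unadjusted limma p under 0.05, all higher (2.63% of all genes were), and 0 an adjusted one. Against controls 16 of 17 were higher in shock-resistant rats, with a median difference of 0.38. The unadjusted limma p was under 0.05 for 1 marker, the lower one, beside 4.2% of all genes lower. In shock-sensitive rats 0 of 17 were higher than in controls. Of the genes at or above the negative control median, 58.5%, 63.3% and 56.6% were lower in these comparisons, in the same order. In dissected tissue, fewer cells of a type and less RNA per cell cannot be told apart.

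Of 27 relations between 9 subunits and 3 marker means, 9 passed by Pearson's r and 7 by Spearman's rho. Gabra4 followed the medium spiny neuron mean with r = 0.91 and rho = 0.79 (adjusted permutation p = 0.00027 over the 27), and Gabrd with r = 0.88 and rho = 0.67 (adjusted permutation p = 0.000405). Leaving out control replicate 1 and shock-sensitive replicate 4, the 2 arrays farthest from the median of the marker mean, r was 0.76 and 0.61. Gabra3 ran against it with r = −0.77 and rho = −0.74 (adjusted permutation p = 0.0018), and r was −0.69 without the 2 arrays. Gabrb1 gave r = −0.65 and rho = −0.64 (adjusted permutation p = 0.0208), and r = −0.55 without them.

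Gabrg1 and Gabra5 leaned more on those 2 arrays. Gabrg1 gave r = −0.73 and rho = −0.51 (adjusted permutation p = 0.00398) and −0.41 without them, and Gabra5 gave r = −0.58 and rho = −0.44 (adjusted permutation p = 0.0328) and −0.32 without them. Gabrg3, Gabrb2 and Gabra2 did not pass, with r of 0.42, −0.25 and 0.08, rho of 0.50, −0.31 and 0.09, adjusted permutation p-values of 0.194, 0.450 and 0.894, and r of 0.33, −0.39 and 0.11 without them. With the group means removed, the adjusted permutation p still passed for Gabra4, Gabrd, Gabra3, Gabrg1 and Gabrb1 with the medium spiny neuron mean, at r = 0.91, 0.89, −0.72, −0.69 and −0.57, and for none of the other relations.

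With the astrocyte marker mean, Gabra3 and Gabrg1 gave r = 0.64 and 0.61 (rho = 0.64 and 0.61) and Gabra4 gave r = −0.67 (rho = −0.73), with adjusted permutation p-values of 0.0176, 0.0227 and 0.0094. Without shock-sensitive replicate 4 and shock-resistant replicate 2, the farthest arrays for that mean, r was 0.45, 0.40 and −0.54. The 12 astrocyte markers were all lower in shock-resistant than in shock-sensitive rats, with a median difference of −0.15, and 4 had an unadjusted limma p under 0.05, beside 3.77% of all genes lower. Several other lists also had more markers lower than higher in that comparison. Of 14 septal, thalamic or hypothalamic markers 10 were lower, 2 of them at an unadjusted limma p under 0.05, with a difference of list means of −0.34. Of 13 cortical excitatory markers 10 were lower, 4 of them at that threshold, and of 10 microglia markers 7, 2 of them at it. All 9 oligodendrocyte markers were lower, none of them at it, and all 6 oligodendrocyte precursor markers, 1 of them at it. Of 13 striatal interneuron markers 8 were lower, of 8 choroid plexus markers 1 and of 6 endothelial markers 1, none of these at it. Beside these counts, 51.6% of all genes were lower, and 58.5% of those at or above the negative control median. The part of these lists in the subunit differences was not tested. No subunit passed with the cortical excitatory marker mean.

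**Figure D4:**
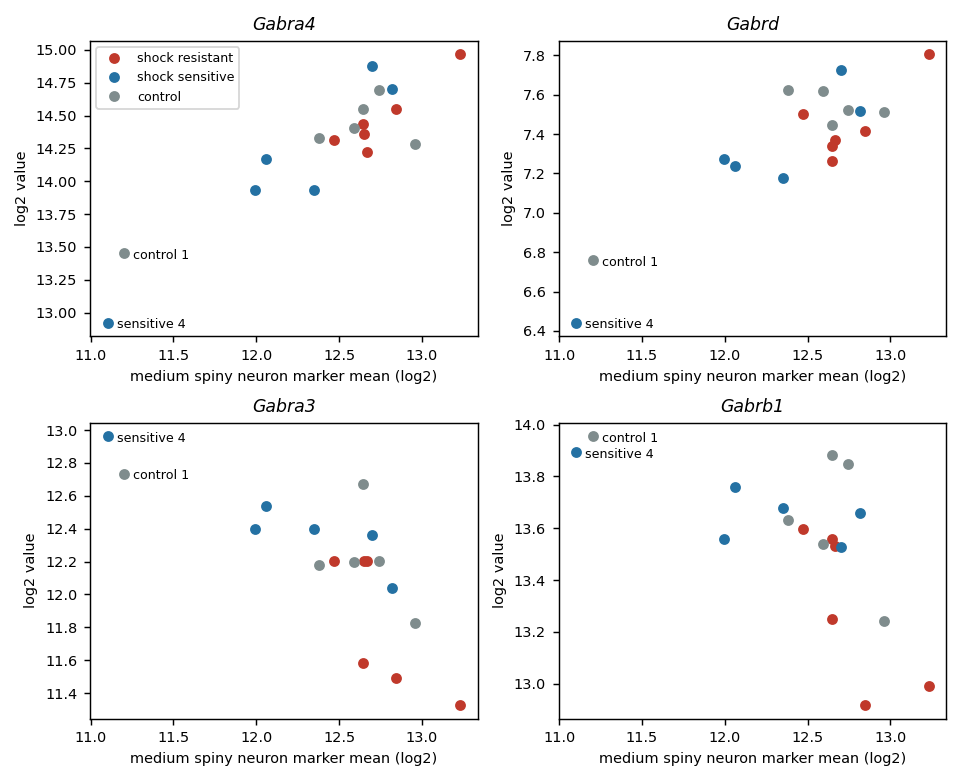
Log2 value of Gabra4, Gabrd, Gabra3 and Gabrb1 (vertical) against the mean log2 value of 17 medium spiny neuron markers (horizontal), 1 point per rat, shock resistant in red, shock sensitive in blue and control in grey. Shock-sensitive replicate 4 and control replicate 1 sit at marker means of 11.10 and 11.20, with the lowest values of Gabra4 and Gabrd and high values of Gabra3 and Gabrb1.

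With the medium spiny neuron mean added to the limma fit, the difference between shock-resistant and shock-sensitive rats was −0.33 ± 0.15 (SE) for Gabra3, with an unadjusted limma p of 0.041 and an adjusted p of 0.999, against −0.61 without it. It was −0.22 ± 0.13 for Gabrb1 and −0.14 ± 0.11 for Gabra5, with unadjusted limma p-values of 0.0996 and 0.222 and an adjusted p of 0.999 for both. The sign turned for Gabra4 and Gabrd, at −0.11 ± 0.13 and −0.11 ± 0.09, and Gabrg1 was at −0.06 ± 0.15. Against controls, Gabrb1 was lower in shock-resistant rats by −0.29 ± 0.12 and Gabra3 by −0.31 ± 0.14, with unadjusted limma p-values of 0.024 and 0.044 and adjusted ones of 0.384 and 0.432. The part of the marker mean in these differences was not otherwise tested.

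Without control replicate 1 and shock-sensitive replicate 4, Gabra3, Gabrb1 and Gabra5 remained lower in shock-resistant than in shock-sensitive rats, by −0.51 ± 0.18 (SE), −0.33 ± 0.14 and −0.22 ± 0.10, with unadjusted limma p-values of 0.011, 0.028 and 0.044 and an adjusted p of 0.966 for all 3. Gabra4 and Gabrd were higher by 0.15 ± 0.17 and 0.06 ± 0.10, against 0.39 and 0.22 with all arrays. Gabrg1 was at −0.20, against −0.31, Gabrb2 at −0.21, Gabra2 at −0.09 and Gabrg3 at −0.02. In shock-resistant rats against controls, Gabra3 was at −0.38 and Gabrb1 at −0.32 without them. Gabrg1 was then at −0.22, against −0.32 with all arrays, Gabra5 at −0.07, against −0.14, Gabra4 at 0.02, against 0.19, and Gabrd at −0.10, against 0.03. In shock-sensitive rats against controls, Gabra4 was at −0.13, against −0.20, Gabrd at −0.16, against −0.18, and Gabra3 at 0.13, against 0.15.

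**Figure D5:**
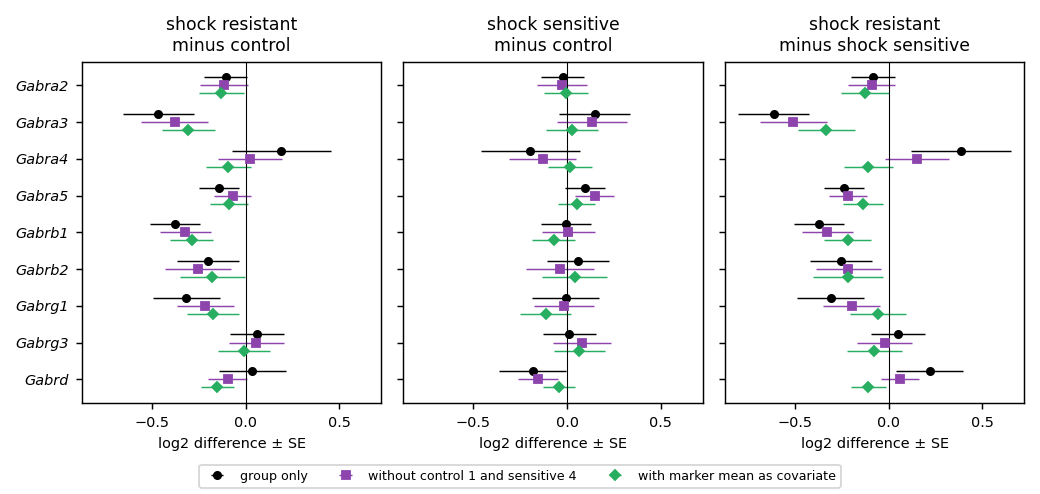
Log2 difference of each subunit gene in the 3 comparisons, with bars for the SE, from the limma fit with group only (black), without control replicate 1 and shock-sensitive replicate 4 (purple), and with the medium spiny neuron mean as a covariate (green). Gabra3 and Gabrb1 stay below 0 where shock-resistant rats are compared, at −0.61, −0.51 and −0.33 for Gabra3 against shock-sensitive rats, while Gabra4 is at 0.39, 0.15 and −0.11.

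The genes most like each subunit in their pattern were taken as the 3 with the highest Pearson r over the 18 arrays among 11368 named genes above the negative control median. These values describe the arrays and share their 2 outlying rats. Gabra4 was most like Ppp3ca, the calcineurin catalytic subunit, Ano3 and Neto1, at r = 0.98, 0.97 and 0.97, and 0.93 to 0.95 without those 2 arrays. Gabrd was most like Ephx4, Ccsap and the kinase gene Ptk2b, each at r = 0.94, and 0.78 to 0.84 without the 2 arrays. The likeness of Gabrd thus leaned on those arrays more than that of Gabra4 did. Gabra3 was most like Cdh18, a cadherin, Ralyl and Gprasp1, at r = 0.95, 0.95 and 0.94. Gabrb1 was most like Dpp10, an auxiliary subunit of potassium channels, Usp29 and Ubr1, at r = 0.94, 0.93 and 0.92. Without the 2 arrays those of Gabra3 and Gabrb1 stayed at 0.92 to 0.93.

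The other subunits had their own closest genes. Gabra5 was most like Gtf2a1, Gnai1 and Ift22, at r = 0.94, 0.87 and 0.87, which were 0.92, 0.81 and 0.81 without the 2 arrays. Gabrg1 was most like Ywhaq, St8sia6 and Tmx1, at r = 0.92, 0.92 and 0.91, which fell to 0.86, 0.85 and 0.84 without them. Gabrb2 was most like Coro6, Mapk6 and Galntl6, at r = 0.92, 0.89 and 0.89, which were 0.93, 0.89 and 0.90 without the 2 arrays. Gabra2 was most like Enox2, Wdr47 and Chmp1b2, at r = 0.86, 0.85 and 0.85, and 0.89, 0.91 and 0.86 without the 2 arrays. Gabrg3 was most like Rbbp6, Sun1 and Ssbp2, at r = 0.86, 0.84 and 0.82, and 0.85, 0.82 and 0.79 without them.

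Other genes of GABA signalling were followed in 4 lists, and none of their members passed the adjusted limma threshold in any comparison. Among 7 measured genes of GABA synthesis, release and clearance, 2 were lower in shock-resistant than in shock-sensitive rats at an unadjusted p under 0.05, as were 3.77% of all genes. Slc6a11, the GABA transporter GAT3 of astrocytes, averaged 14.08 ± 0.41 in the shock-resistant group and 14.80 ± 0.73 in the shock-sensitive group (SD, n = 6 each), a log2 difference of −0.72 ± 0.30 (SE) with a limma p of 0.025 and an adjusted p of 0.753. Aldh5a1, which breaks down the product of GABA transamination, differed by −0.15 ± 0.07, with an adjusted limma p of 0.769. The synthesis enzymes Gad1 and Gad2 and the vesicular transporter Slc32a1 differed by 0.06, −0.09 and 0.03 in the same comparison. Against controls none of the 7 passed at an unadjusted p in shock-resistant rats, where Abat, the GABA transaminase, differed by −0.12. In shock-sensitive rats 1 was higher than in controls at an unadjusted limma p under 0.05, beside 4.56% of all genes higher. It was the transporter gene Slc6a13, by 0.14 ± 0.06, with an adjusted limma p of 0.807.

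Of 21 measured genes for inhibitory synapse scaffolds and receptor trafficking, 3 were higher and 2 lower in shock-resistant than in shock-sensitive rats at an unadjusted p under 0.05, beside 2.63% of all genes higher and 3.77% lower. Insyn1, an inhibitory synaptic factor, averaged 10.73 ± 0.09 in the shock-resistant group, 10.23 ± 0.15 in the shock-sensitive group and 10.44 ± 0.54 in controls (SD, n = 6 each). Between the methamphetamine groups it differed by 0.50 ± 0.18 (SE), with a limma p of 0.011 and an adjusted p of 0.753. That SE pools the spread of all 3 groups, of which the controls had the widest. All 6 shock-resistant rats lay above the shock-sensitive median. Rdx encodes radixin, which anchors alpha5 receptors outside synapses, and it was lower by −0.22 ± 0.07, with an adjusted limma p of 0.753, beside the −0.24 of Gabra5. Gabarapl1, a relative of the receptor-associated protein GABARAP, was lower in shock-resistant rats than in controls by −0.26 ± 0.12, as was Rdx by −0.17 ± 0.07, with adjusted limma p-values of 0.430 and 0.402. These were the 2 of the 21 lower there at an unadjusted limma p under 0.05, beside 4.2% of all genes lower. Gphn, which encodes the scaffold gephyrin, differed by 0.14 ± 0.09 between the methamphetamine groups, and Nlgn2, an adhesion protein of inhibitory synapses, by 0.03. In shock-sensitive rats 1 of the 21 was lower than in controls at an unadjusted limma p under 0.05, beside 1.53% of all genes lower. It was Ubqln1, by −0.12 ± 0.05, with an adjusted limma p of 0.786.

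The 5 genes of the GABA-B receptor, the metabotropic receptor for GABA, and the 4 chloride transporter genes gave no limma p under 0.05, adjusted or not, in any of the 3 comparisons. Between shock-resistant and shock-sensitive rats the receptor subunits Gabbr1 and Gabbr2 differed by 0.10 ± 0.05 (SE) and −0.30 ± 0.15, and the auxiliary subunit Kctd16 by 0.40 ± 0.20, each with an adjusted limma p of 0.769. Kctd12 differed by −0.07 between shock-sensitive rats and controls. The chloride importer Slc12a2 and the exporter Slc12a5, which set whether GABA-A receptors hyperpolarise a neuron, differed by 0.02 and 0.04 between the methamphetamine groups, and the channel and exchanger genes Clcn2 and Clcn3 by 0.02 and −0.12.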

How the data were processed

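Biotin-labelled cDNA was hybridised to Affymetrix whole-transcript arrays, 1 per rat. Per the submitters' processing notes, the authors used Affymetrix Expression Console. Deposited values ran from 2.06 to 19.93 and were therefore read as log2. How they were summarised and normalized, and with which version, was not given in the sources used here and could move values between arrays. Array medians lay between 5.43 and 5.56. Of 70580 features, 1738 were controls. Genes were named by features with 1 symbol, and the feature with the highest mean was kept, which left 22093 genes with no filter on low values. Arrays give no read depth, and the 6 rats per group limit the precision.

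A single limma 3.58.1 fit (R 4.3.3) with group as its term covered 18 arrays, two-sided, adjusted by Benjamini-Hochberg over all genes at 0.05. Exact permutation tests were two-sided, and the smallest p they allowed was 0.00216. Correlations used 100000 permutations. Scripts ran on Python 3.11.15 with scipy 1.17.1, numpy 2.4.6, matplotlib 3.10.9 and pandas 2.3.3, and the fit was tested on simulated data. The 9 genes, the lists and the alternatives were chosen with earlier results of these data known. Besides the 9, the text names fixed genes of the pathway lists, the 2 with the smallest limma p of each list in each comparison, and the 3 genes most like each subunit. Alternatives were quantile normalization, median centring, genes at or above the negative control median, the mean of a gene's features, trend and robust variance, array weights, 2 groups alone, exact permutation, a block by replicate number, the mean of the medium spiny neuron markers as a covariate, leaving out control replicate 1 with shock-sensitive replicate 4, and each array left out. Replicate numbers were taken as names only.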

Additional observations from a re-analysis of the deposited data

Results flagged for a closer look

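For 2 of the 27 sets of 6 arrays (9 genes in 3 groups), 1 rat lay far from the other 5, and chance gives about 1 in 20 such sets. Gabra4 in control replicate 1 was 13.45 on the log2 scale, and the next control was at 14.28. Gabrd in the same array was 6.76, near the negative control median of 6.37, and the next control was at 7.44. The mean of the medium spiny neuron markers in that array was 11.20, the lowest of the controls, and its part in these values was not tested.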

How the results depend on the processing

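No subunit passed the adjusted limma threshold under any alternative run (smallest adjusted p 0.238). Of 11 alternatives, 5 leave the size of a difference as it is. The other 6 gave 138 values that differed from the reported ones for the 27 member differences, of which 119 kept their direction and 19, in 12 differences, turned sign, and the cause was not tested. For shock-resistant rats against controls, those that turned were Gabra4 (−0.092), Gabrg3 (−0.011) and Gabrd (−0.15) with the marker covariate, and Gabrd with median centring (−0.0041), array weights (−0.068) and without control replicate 1 and shock-sensitive replicate 4 together (−0.096). For shock-sensitive rats against controls they were Gabra2 (0.012) and Gabrb1 (0.019) with quantile normalization, Gabra4 (0.016) with the covariate, Gabrb1 (0.0062), Gabrg1 (0.10) and Gabrg3 (−0.0052) with array weights, Gabrg3 (−0.012) with median centring, and Gabrb1 (0.0061) and Gabrb2 (−0.038) without both arrays. Between shock-resistant and shock-sensitive rats they were Gabra4 (−0.11), Gabrg3 (−0.076) and Gabrd (−0.11) with the covariate and Gabrg3 (−0.022) without both arrays.

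With each array left out in turn, 9 differences turned sign at least once. For shock-resistant rats against controls Gabrg3 ranged over −0.0034 to 0.14 and Gabrd over −0.096 to 0.077. For shock-sensitive rats against controls Gabra2 ranged over −0.089 to 0.074, Gabra4 over −0.36 to 0.037, Gabrb1 over −0.093 to 0.049, Gabrb2 over −0.038 to 0.19, Gabrg1 over −0.12 to 0.097 and Gabrg3 over −0.083 to 0.091. Between the methamphetamine groups Gabrg3 ranged over −0.025 to 0.14. Another 12 differences kept their sign but moved by over 1.5 times, among them Gabra4 for shock-resistant rats against controls, over 0.023 to 0.27.

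The count of all genes past the adjusted limma threshold for shock-resistant rats against controls was 4. It was 9 with array weights, 2 with the replicate block, and 0 with quantile normalization, genes at or above the negative control median or 2 groups alone. Leaving out 1 array gave 0 to 7: shock-resistant replicate 1 gave 0, shock-resistant replicate 5 and control replicate 4 each 1, shock-sensitive replicates 1, 3, 5 and 6 and control replicate 3 each 2, and control replicate 2 gave 7. For shock-sensitive rats against controls it was 0, and 0 to 1 with 1 array left out (1 when that was control replicate 3). For shock-resistant against shock-sensitive rats it was 0, 1 with median centring and 0 to 1 with 1 array left out (1 when that was shock-resistant replicate 4 or control replicate 3). By the F test it was 2, and 0 with quantile normalization, median centring, genes at or above the negative control median, the marker covariate or without both arrays, 5 with array weights, and 0 to 3 with 1 array left out (3 when that was shock-resistant replicate 4 or shock-sensitive replicate 2, 2 for control replicate 3, 1 for shock-sensitive replicate 1 and 0 for any other). Marker relations past the threshold numbered 9, and 5 with group means removed.

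Deviations of same-numbered arrays from their group means had correlations of −0.31 to 0.29. Arrays with different numbers were not compared in this way, so these values cannot decide whether the numbers mark a pairing or batch. The replicate block moved the first count to 2, kept the others at 0, 0 and 2, and changed no member's call. All 9 subunits lay above the negative control median of 6.37 on every array, though Gabrd came near it, with a lowest value of 6.44. The 6 arrays a group limit the precision.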

Other observations

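Other genes of the receptor family, looked at after the values of the 9 were seen, lay mostly below the negative control median of 6.37. Gabra6, Gabrp, Gabrr1, Gabrr2 and Gabrr3 had means between 4.18 and 4.73 on the log2 scale and were at or above 6.37 on 0 of 18 arrays. Gabre had a mean of 6.95 and a range of 5.95 to 8.16, at or above 6.37 on 16 of 18 arrays, and Gabrq a mean of 6.73 and a range of 6.05 to 8.14, on 13 of 18.

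A second feature for Gabra4 had a mean of 6.03, below the negative control median. Several subunits had exactly equal deposited values on more than 1 array: Gabra3 was at 12.2042 on 4 arrays, Gabra2 at 15.0849 on 4, Gabra5 at 9.88389 on 3 and Gabrg3 at 12.7722 on 3.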
